A study of Mus musculus with 8 samples.

Results

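Red cell precursors take up more iron than almost any other cell, and 10 genes that carry, store, export or sense it were followed here: Tfrc, Tfr2, Slc11a2, Steap3, Slc25a37, Slc25a38, Slc40a1, Fth1, Aco1 and Ireb2. They were taken from the arrays by gene name, and all 10 were among the 19128 genes tested. Of them, 9 carried these names in the array design, and Tfr2, which the design calls Trfr2, was matched by its accession. The 10 genes were measured by 15 probes, each of them well above background on all 8 arrays.

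The cells came from the liver of C57BL/6 mouse fetuses at E14.5, in the middle of embryonic life, and were enriched for early erythroid progenitors. Cells with markers of mature blood, multipotent or myeloid cells, among them Sca-1, CD41 and CD34, were removed with magnets, and cells positive for c-kit and within the lowest 10% for CD71 were sorted. All cells were then infected and cultured for 3 days, and RNA of each sample was hybridised to a 1-colour array. The 4 groups of 2 arrays were a virus with shRNA1 and DEX, a virus with shRNA2 and DEX, control virus with DEX, and control virus without DEX. DEX is a glucocorticoid, going by the title of the series, and both short hairpin RNAs target an RNA-binding protein that the labels leave unnamed. It is taken here as Zfp36l2 from knowledge of the published study. There was no shRNA group without DEX, so the response to DEX was measured in control virus cells alone. CD71 is the protein made from Tfrc, so every group started from cells chosen for little of it at the surface.

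Transferrin carries iron in the blood, and Tfrc, the transferrin receptor, brings it into the cell. In the endosome Steap3 reduces the iron and Slc11a2 (DMT1) moves it to the cytosol. Slc25a37 (mitoferrin 1) carries iron into mitochondria, where haem is made, and Slc25a38 carries the glycine that haem synthesis also needs. Fth1 is the heavy chain of ferritin, which stores iron, and Slc40a1 (ferroportin) exports it. Aco1 and Ireb2 are the iron regulatory proteins: when iron is scarce they bind RNA hairpins that stabilise the Tfrc mRNA and hold back translation of ferritin and ferroportin. Tfr2 binds iron-loaded transferrin and is known to associate with the erythropoietin receptor.

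Values are log2 signals minus the 75th percentile of the array, called levels below, and a difference between groups is one of log2 means, given with its standard error (SE). A gene with several probes is represented by its brightest. Each slide held 1 array of every group, replicate 1 on slide 1 and replicate 2 on slide 2, and the 75th percentile of intensity ran between 476 and 1003 on slide 1 and between 1439 and 2061 on slide 2. The limma fit was therefore also run with the slide as a block. The 75th percentile was also lower with either shRNA on both slides. On slide 1 it was 476 with shRNA1 and 522 with shRNA2, against 1003 in control cells without DEX and 966 with DEX. On slide 2 it was 1439 and 1665, against 1923 and 2061. The part of this dimness in the knockdown comparisons was not tested. The labels do not say whether replicates were separate cultures or animals, so the spread behind each p-value is that between arrays and may be technical. Zfp36l2 had levels of 4.09 and 3.92 with shRNA1 and 4.12 and 3.70 with shRNA2, against 5.55 and 5.42 in control cells with DEX, so all 4 knockdown arrays lay below both. In control cells without DEX it had 3.49 and 3.85.

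Markers of cell types moved with the groups. Of 10 erythroid markers 0 were higher with DEX than without (median difference -0.70), 10 were higher with shRNA1 (0.86) and 6 with shRNA2 (0.02). With each array's median as the scale these counts were 2, 8 and 2. Of 13 tested neutrophil markers 2 were higher with DEX (median -1.04), and all 13 were higher with either shRNA (1.69 and 2.42) under every scaling. The log2 of their summed level was 7.04 and 7.17 with shRNA1 and 9.08 and 6.49 with shRNA2, against 5.21 and 6.03 in control cells with DEX and 5.35 and 7.49 without DEX. The array of shRNA2 on slide 1 was thus the highest. The monocyte and macrophage list had 7 of 14 markers tested, and 1 was higher with DEX, 7 with shRNA1 and 6 with shRNA2. The list's summed level was 3.18 and 1.72 with shRNA1 and 3.74 and 0.95 with shRNA2. Control cells had 1.65 and 0.50 with DEX and 1.95 and 2.35 without. Csf1r made up most of that sum, with 3.05 and 1.43, 3.27 and 0.58, 1.50 and 0.18, and 1.82 and 1.95 in the same order. Cd163, Mrc1, Siglec1, Timd4 and Vcam1, which mark macrophages, were among the 7 not well above background in any whole group. Of 10 megakaryocyte markers 3 were higher with DEX and 9 with either shRNA. The early progenitor list had 3 of 4 markers tested. There 2 were higher with DEX (median 0.59), 0 with shRNA1 (-0.54) and 1 with shRNA2 (-0.11). Hepatocyte markers had 5 of 8 tested, with 4 higher with DEX (0.96) and 2 with either shRNA (-0.22 and -0.12). In the same order the counts were 1, 2 and 3 for 4 tested mast cell markers and 1, 2 and 2 for 3 lymphoid ones. The part of these markers in the results below was not tested. In bulk RNA, fewer cells of a type and less RNA per cell cannot be told apart.

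The probes themselves decide what some of these values measure, so those of the genes with the largest differences or with disagreeing probes are shown. All are 60 bases long and placed on build mm9, the coordinates are those of the whole probe, and the stretch printed is its bases 1 to 30.
Slc25a37, brighter probe, chr14:69860020-69860079, minus strand: taagagtggcctagtgttgctttccgaatg
Slc25a37, dimmer probe, chr14:69902797-69902856, minus strand: acatgacagcgggagcgatggccgggattc
Tfrc, brightest probe, chr16:32632255-32632314, plus strand: tgagcaagatcacattaacaaagactagtt
Tfrc, middle probe, chr16:32620470-32620529, plus strand: tcctgctagatggaacatagattcttcatg
Tfrc, dimmest probe, chr16:32624877-32625093, plus strand: atctctatatagagacagcaattggattag
Slc11a2, brighter probe, chr15:100218333-100218392, minus strand: tgctttaatcccaaccagaaataatcatcc
Slc11a2, dimmer probe, chr15:100240516-100240575, minus strand: gagactctgaggagcccttcaccacctact
The dimmest Tfrc probe covers 217 bases of the genome with its 60 bases, so it crosses a gap in the alignment, and the brightest is printed on the array in 10 spots. Whether a probe lies in a coding exon is not stated, as no annotation of this build was used. Aco1 had a single probe, and bases 31 to 60 of it are shown because of their composition, with a run of pyrimidines in capitals.
Aco1, only probe, chr4:40145780-40145839, plus strand: acgttttaTCTTTTCTTTCCTTCTTTTCTT
That run of 22 bases was longer than the longest run in 99.9% of the 39429 probes with a sequence, where the median was 5. Pyrimidines made up 71.7% of the Aco1 probe, against a median of 50% over all probes. Aco1 and Ireb2 were dim, with intensities between 64 and 270 for Aco1 and between 76 and 345 for Ireb2.

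The first comparison asked how the glucocorticoid changes these genes, in control virus cells with DEX against those without. Of the 10 genes 7 were lower and 3 higher, and the largest differences were those of Slc25a37 (-1.41), Tfrc (-1.04) and Slc40a1 (-0.93) and, in the other direction, Aco1 (1.46). The median over the 10 genes was -0.24, against -0.08 over all genes, and the same 7 genes lay below the median of all genes. That split of 7 and 3 was found under every scaling, background correction and filter tried. The arrays of the 2 groups did not overlap for 5 lower genes (Tfrc, Slc11a2, Steap3, Slc25a37 and Slc40a1) and 2 higher ones (Aco1 and Ireb2), while 16.5% of all genes were lower and 10.4% higher without overlap. Lower on both slides were 7 of the 10 genes, against 38.7% of all genes.

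None of the 10 passed in limma at a Benjamini-Hochberg adjusted p below 0.05, and neither did any other gene (0 of 19128, or 0%). At an unadjusted p below 0.05 limma had 1 of the 10, Aco1, and 3.11% of all genes. When the slide was a block, 44 genes passed, or 0.23%, and 0 of the 10 were among them. In that fit 4 of the 10 had an unadjusted p below 0.05 (Slc25a37, Slc40a1, Aco1 and Tfrc), and 9.55% of all genes did.

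The knockdown comparisons asked what knockdown of the RNA-binding protein does under DEX, and both share the control arrays with DEX. With shRNA1 the mitochondrial carriers stood out in size, Slc25a37 at 1.57 and Slc25a38 at 1.02, followed by Tfr2 at 0.65. With shRNA2 those 3 genes differed by 0.09, 0.09 and 0.13, and the largest difference was that of Slc40a1 (0.61). The median of all genes was itself 0.18 with shRNA1 and 0.01 with shRNA2, and -0.22 and -0.23 with each array's median as the scale. Relative to that median, 6 of the 10 were higher and 4 lower with either shRNA, and 3 were higher with either under the normexp background correction. Without a filter on dim probes 3 were higher with shRNA1 and 2 with shRNA2.

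The arrays did not overlap for 2 of the 10 with shRNA1, both higher (Slc25a37 and Slc25a38), against 18% of all genes. With shRNA2 1 of the 10 was lower without overlap (Steap3), against 8.19% of all genes. Limma called 0 of the 10 with shRNA1 and 0% of all genes, with or without the slide as a block. At an unadjusted p below 0.05 it had 0 of the 10 without the block (2.09% of all genes) and 3 with it (Slc25a37, Slc25a38 and Tfr2), where 17.8% of all genes were. With shRNA2 limma called 0 of the 10 and 0% of all genes, or 0.00523% (1 gene) with the block. At an unadjusted p below 0.05 it had 0 of the 10 (1.25% of all genes), and 1 with the block (Slc40a1, with 5.7% of all genes).

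**Figure D1:**
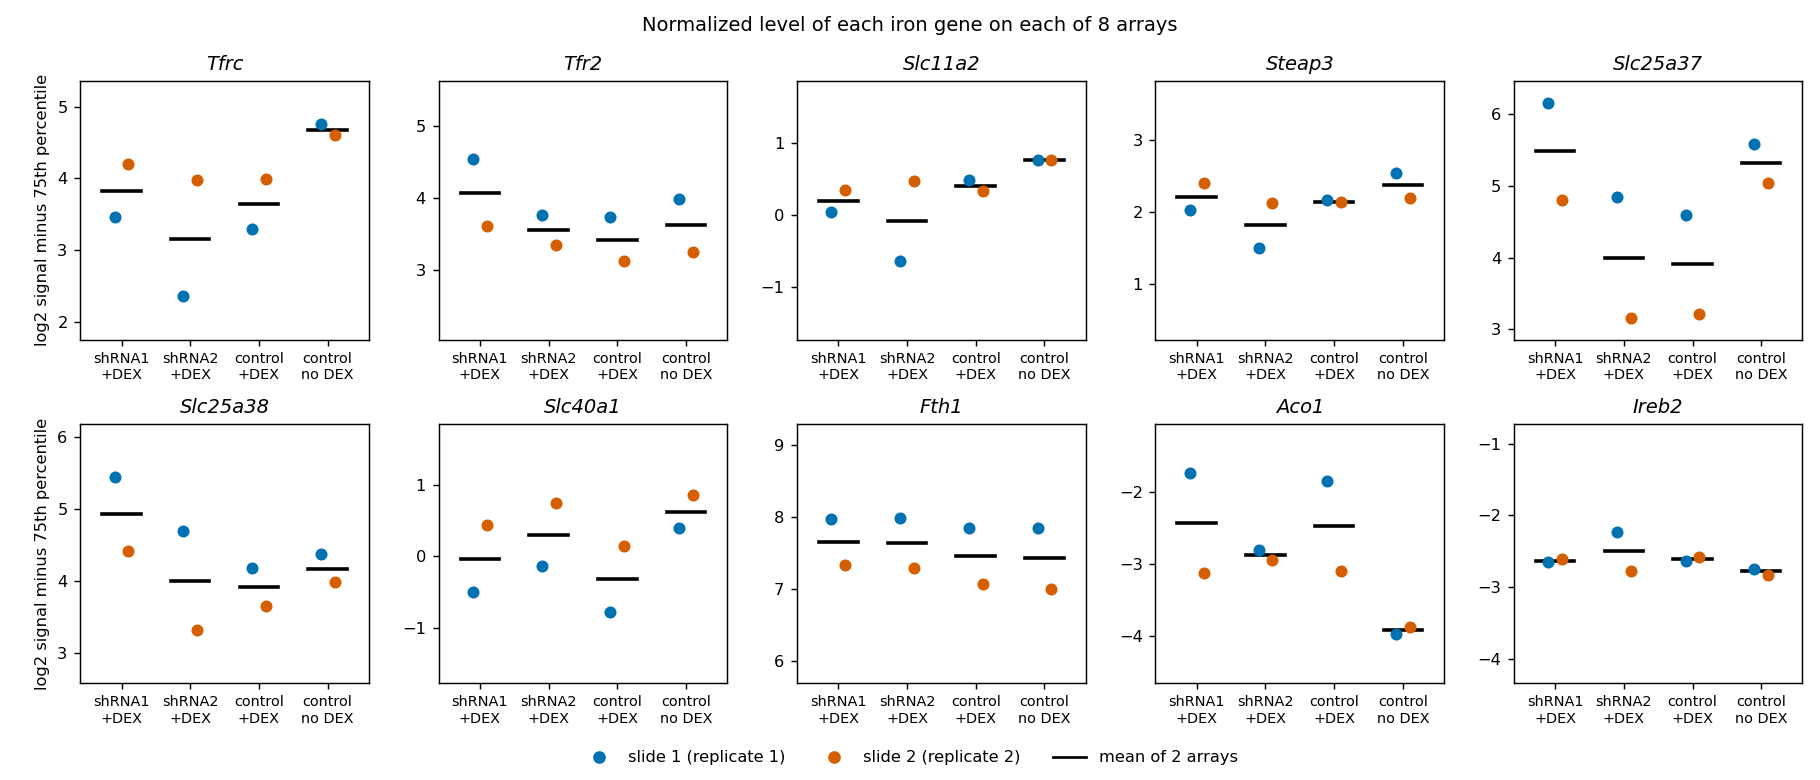
Level (log2 signal minus the array's 75th percentile) of each of the 10 genes on each of the 8 arrays, by group, with points coloured by slide and a line at the mean of 2 arrays; every panel spans the same number of log2 units. Slc25a37 had its highest array with shRNA1 on slide 1 (6.16), and Aco1 was lowest on both arrays without DEX (-3.97 and -3.88).

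Tfrc, the receptor for transferrin iron, had levels of 3.29 on slide 1 and 3.99 on slide 2 in control cells with DEX, against 4.75 and 4.60 without DEX. Both arrays without DEX lay above both with DEX. The difference was -1.04 (SE 0.60), a 2.05-fold lower signal, with -1.46 on slide 1 and -0.61 on slide 2 (limma, adjusted p = 1, or 0.52 with the slide as a block). Without the DEX array of slide 1 it was -0.69. The 2 other Tfrc probes gave -1.20 and -1.13.

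Tfrc levels in the knockdown arrays were 3.46 and 4.20 with shRNA1 and 2.36 and 3.97 with shRNA2, on either side of the control arrays with DEX. The value of 2.36, from shRNA2 on slide 1, was the lowest of the 8. The brightest probe differed by 0.19 (SE 0.60) with shRNA1 and by -0.48 (SE 0.60) with shRNA2. The middle probe gave 0.99 and 0.16 and the dimmest 0.43 and -0.16, so the probes of Tfrc disagreed in size for shRNA1 and in direction for shRNA2. With each array's median as the scale the shRNA1 difference was -0.21.

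Tfr2, the second transferrin receptor, differed less. Its levels were 4.54 and 3.61 with shRNA1 and 3.76 and 3.35 with shRNA2, against 3.73 and 3.12 in control cells with DEX and 3.99 and 3.25 without. In every group slide 1 was the higher, by between 0.41 and 0.93, and the 4 groups overlapped. The difference was 0.65 (SE 0.48) with shRNA1, with 0.81 and 0.49 on the slides, and it lay between 0.25 and 0.65 under the other scalings and settings. Without the shRNA1 array of slide 1 it was 0.19, and without that of slide 2 it was 1.12. Limma gave it an adjusted p of 0.923, or 0.254 with the slide as a block. With DEX it was -0.20 (SE 0.48).

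Slc11a2, which moves iron out of the endosome, had 0.48 and 0.34 in control cells with DEX, against 0.76 and 0.77 without. The 2 groups did not overlap, and the difference was -0.35 (SE 0.42). Its other probe gave -0.31, but there the arrays overlapped (-2.29 and -2.54 with DEX, against -1.91 and -2.30 without). With shRNA1 the levels were 0.04 and 0.35 and with shRNA2 -0.64 and 0.47. The differences were -0.22 and -0.49 by the brighter probe but 0.27 and 0.03 by the dimmer one, so the direction depended on the probe.

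Steap3, the ferrireductase of the endosome, had 2.16 and 2.13 with DEX, against 2.54 and 2.19 without, and both of its probes gave a difference of -0.23 (SE 0.35 for the brighter). Its levels were 2.02 and 2.40 with shRNA1 and 1.50 and 2.12 with shRNA2. By the brighter probe both shRNA2 arrays lay below both control arrays with DEX, the one on slide 2 only by the second decimal. The difference with shRNA2 was -0.33 (SE 0.35), made up of -0.66 on slide 1 and 0.00 on slide 2, and was -0.02 without the shRNA2 array of slide 1. The dimmer probe had 0.05 and 0.75 with shRNA2, against 0.69 and 0.64 in control cells with DEX, so there the arrays overlapped. Its differences were 0.29 with shRNA1 and -0.27 with shRNA2.

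**Figure D2:**
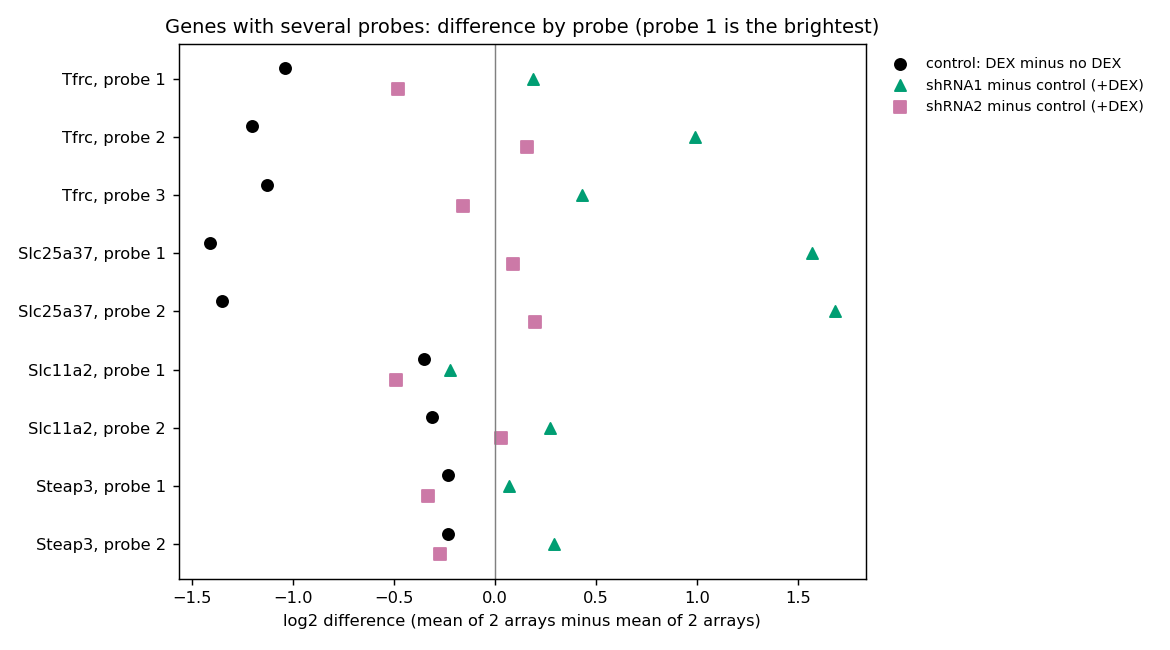
Log2 difference in 3 comparisons for each probe of the 4 genes with several probes; each point is the mean of 2 arrays minus the mean of 2 arrays. The probes lay close together for DEX (Tfrc between -1.20 and -1.04) and for Slc25a37 with shRNA1 (1.57 and 1.68), and spread for Tfrc with shRNA1 (0.19 to 0.99).

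Slc25a37, the importer of iron into mitochondria, had the largest difference with shRNA1. Its levels were 6.16 and 4.81 with shRNA1 and 4.85 and 3.16 with shRNA2, against 4.60 and 3.22 in control cells with DEX and 5.59 and 5.04 without. Both shRNA1 arrays lay above both control arrays with DEX, which in turn lay below both without DEX. The shRNA2 arrays overlapped those of control cells with DEX, and in all 4 groups slide 2 was the lower, by between 0.56 and 1.68.

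With DEX the Slc25a37 difference was -1.41 (SE 0.79, or 0.31 with the block), 2.65-fold lower, with -0.99 on slide 1 and -1.82 on slide 2. With shRNA1 it was 1.57 (SE 0.79, or 0.31 with the block), 2.97-fold higher, with 1.55 and 1.59 on the slides. The second probe gave -1.35 and 1.68. Limma gave adjusted p-values of 1 for DEX and 0.923 for shRNA1, and 0.169 and 0.229 with the slide as a block. Without 1 or the other control array with DEX the shRNA1 difference was 0.88 or 2.26, and the DEX difference -0.71 or -2.10. With shRNA2 the difference was 0.09, with a 95% interval of -0.67 to 0.86 with the slide as a block. The level with shRNA1 thus lay near that of control cells without DEX (means of 5.48 and 5.32), but both differences use the same control arrays with DEX.

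Slc25a38, the glycine carrier, showed the same direction with shRNA1. Its levels were 5.45 and 4.42 with shRNA1 and 4.69 and 3.31 with shRNA2, against 4.18 and 3.65 in control cells with DEX and 4.37 and 3.98 without. Both shRNA1 arrays were above every array of both control groups. The shRNA1 difference was 1.02 (SE 0.58), 2.03-fold, with 1.26 and 0.78 on the slides (limma, adjusted p = 0.923, or 0.245 with the slide as a block). Without the shRNA1 array of slide 1 it was 0.51, and without that of slide 2 it was 1.53. With DEX it was -0.26 (SE 0.58), and the arrays overlapped. Alas2, which makes the first haem precursor in erythroid cells, is also among the erythroid markers above, and no other enzyme of haem synthesis was listed. It had 7.50 and 4.96 with shRNA1 and 6.34 and 2.89 with shRNA2. Control cells had 6.11 and 3.39 with DEX and 7.11 and 5.62 without. Its difference was 1.48 (SE 1.52) with shRNA1, -0.13 with shRNA2 and -1.62 with DEX, and the arrays overlapped in each. For shRNA1 limma gave an adjusted p of 0.923, or 0.249 with the slide as a block.

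The 2 hairpins were compared directly. Slc25a37 was higher with shRNA1 than with shRNA2 by 1.48 (1.31 and 1.65 on the slides) and Slc25a38 by 0.93 (0.76 and 1.11). Without the shRNA2 array of slide 1 or of slide 2 these differences were 2.32 or 0.64 for Slc25a37 and 1.62 or 0.25 for Slc25a38. Of the 10 genes 8 were higher with shRNA1, 7 relative to the median of all genes, and the arrays of 0 of the 10 were without overlap, while 12.3% of all genes were higher and 4.57% lower without overlap. Limma called 0 of the 10 and 0% of all genes with or without the block, and 0 of the 10 had an unadjusted p below 0.05 without it (2.38% of all genes). With the block 2 did, Slc25a37 and Slc25a38, and 11% of all genes (adjusted p = 0.285 and 0.391). For Slc25a37 the 95% interval was 0.71 to 2.24 with the slide as a block and -0.44 to 3.40 without. Erythroid markers ran the same way (10 of 10 higher with shRNA1, median 0.57), and neutrophil markers the other way (0 of 13, median -0.88).

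**Figure D3:**
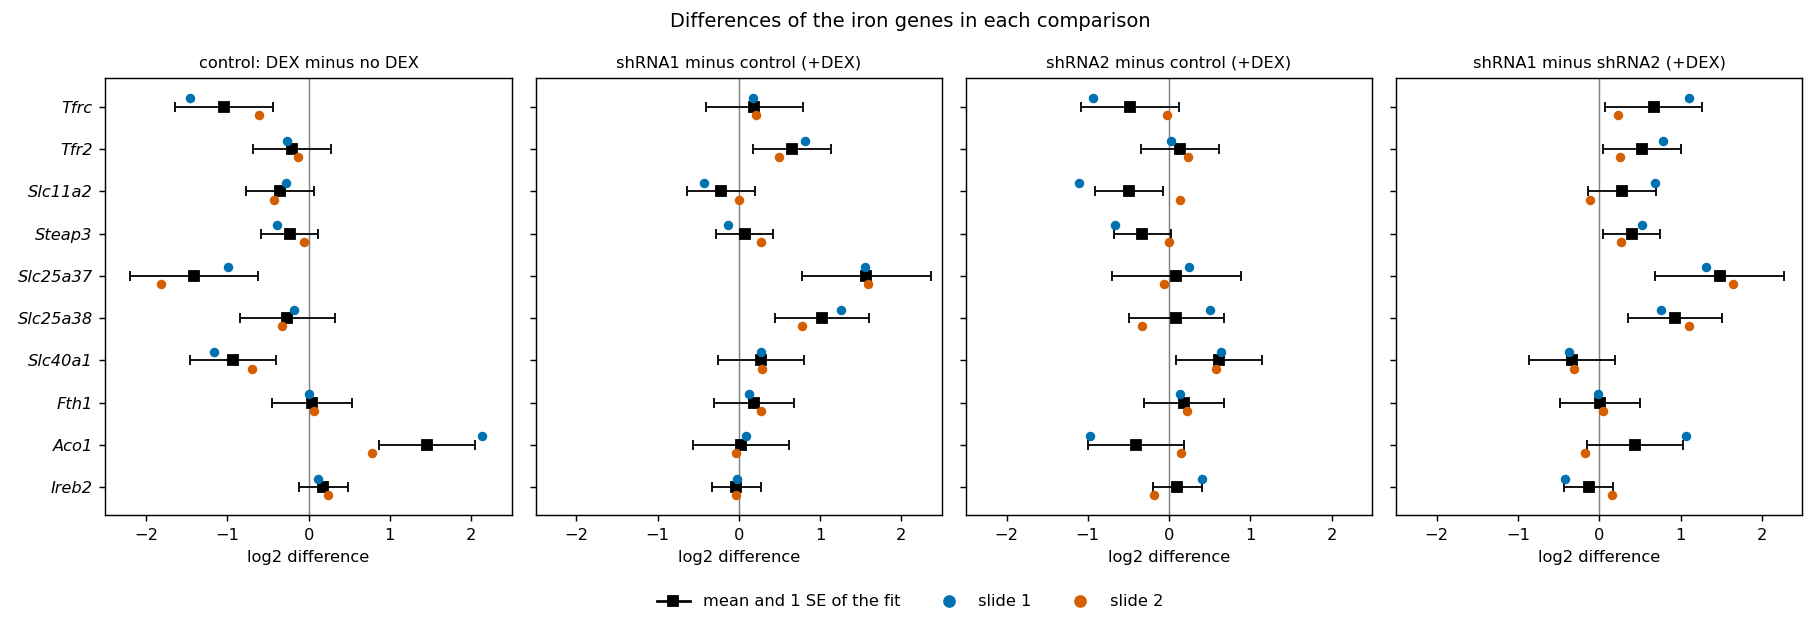
Log2 difference of each of the 10 genes in the 4 comparisons, with the mean and 1 SE of the limma fit without a block as squares and bars and the 2 slides as points. With shRNA1 the points of Slc25a37 nearly coincide (1.55 and 1.59), while with shRNA2 slide 1 lies apart for Tfrc (-0.93, against -0.03 on slide 2) and Slc11a2 (-1.11, against 0.13).

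Slc40a1, the exporter, had -0.77 and 0.15 in control cells with DEX, against 0.40 and 0.85 without. The groups did not overlap, although slide 2 was the higher in all 4 groups, by between 0.45 and 0.93. The difference with DEX was -0.93 (SE 0.53, or 0.21 with the block), 1.91-fold lower, with -1.17 and -0.70 on the slides (limma, adjusted p = 1, or 0.187 with the slide as a block). Without the DEX array of slide 1 it was -0.47, and without that of slide 2 it was -1.39. Its levels were -0.50 and 0.43 with shRNA1 and -0.13 and 0.74 with shRNA2, and both groups overlapped the control arrays with DEX. The difference with shRNA2 was 0.61 (0.64 and 0.58 on the slides), with limma adjusted p = 1, or 0.78 with the slide as a block, and it ran from 0.15 to 1.07 with 1 control array with DEX left out. With shRNA1 it was 0.27 (0.27 and 0.28), but -0.12 with each array's median as the scale.

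Fth1, the ferritin heavy chain, differed little between groups. Its levels were 7.97 and 7.34 with shRNA1 and 7.99 and 7.29 with shRNA2, against 7.85 and 7.07 in control cells with DEX and 7.85 and 7.00 without. The step between slides was larger than any step between groups. With DEX the difference was 0.04, with a 95% interval of -0.42 to 0.49 with the slide as a block and -1.16 to 1.24 without. With the hairpins it was 0.19 and 0.18, and -0.20 and -0.07 with each array's median as the scale. The ferritin light chain gene Ftl1 differed by -0.16 with DEX, 0.76 with shRNA1 and 0.49 with shRNA2.

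Aco1, the iron regulatory protein that doubles as cytosolic aconitase, had -1.84 and -3.10 in control cells with DEX, against -3.97 and -3.88 without. Both arrays with DEX were higher, and the 2 arrays without DEX were the lowest of the 8. The difference was 1.46 (SE 0.59), 2.74-fold, with 2.13 on slide 1 and 0.78 on slide 2 (limma, adjusted p = 1, or 0.324 with the slide as a block). It was 0.83 without the DEX array of slide 1, 2.09 without that of slide 2, and 0.94 to 1.55 under the other scalings and settings. Its levels were -1.74 and -3.12 with shRNA1 and -2.81 and -2.94 with shRNA2. The shRNA1 values lay close to the control values with DEX on each slide, a difference of 0.03 with a 95% interval of -1.05 to 1.11 with the slide as a block. With shRNA2 it was -0.41, made up of -0.97 on slide 1 and 0.15 on slide 2.

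Ireb2, the other iron regulatory protein, spanned the narrowest range, between -2.83 and -2.23 over the 8 arrays. It had -2.63 and -2.58 with DEX, against -2.74 and -2.83 without. The groups did not overlap, and the difference was 0.18 (SE 0.30). With shRNA1 it had -2.65 and -2.61 and with shRNA2 -2.23 and -2.77, differences of -0.03 and 0.10.

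The order of the groups by mean level differed between the genes. Control cells without DEX came highest for Tfrc, Slc11a2, Steap3 and Slc40a1. The shRNA1 group came highest for Tfr2, Slc25a37, Slc25a38, Fth1 and Aco1, and shRNA2 for Ireb2. Control cells with DEX came lowest for Tfr2, Slc25a37, Slc25a38 and Slc40a1, those without DEX for Fth1, Aco1 and Ireb2, and shRNA2 for Tfrc, Slc11a2 and Steap3. These orders are those on the scale of the 75th percentile. Under the 5 scalings the highest group was the same in 5 for Tfrc, Tfr2, Slc11a2, Steap3, Slc25a38 and Slc40a1 and in 4 for Slc25a37, but in 2 for Aco1 and Ireb2 and in 1 for Fth1. The lowest group was the same in 5 for Tfrc, Slc11a2, Steap3 and Aco1, in 4 for Tfr2, Slc25a37, Slc25a38 and Slc40a1, in 3 for Fth1 and in 2 for Ireb2. Most neighbours in these orders overlapped. The exceptions were the step from control cells without DEX to the next group for Tfrc and Slc11a2, from shRNA1 to the next for Slc25a38, from control cells without DEX to shRNA2 for Slc25a37, and to the lowest group for Steap3, Aco1 and Ireb2.

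Some of the 10 genes followed each other over the 8 arrays, which share slide, scale and samples. Tfrc, Slc11a2 and Steap3, which act in 1 uptake route, had Pearson correlations of 0.88 to 0.90 with each other, each by its brightest probe. With the mean of each slide removed these were 0.87 to 0.90. Their Spearman correlations were lower, 0.67 to 0.83. Slc25a37, Slc25a38 and Tfr2 had 0.82 to 0.89, and 0.66 to 0.78 with slide means removed. Ireb2 ran against Slc11a2 (-0.92, and -0.91 with slide means removed) and Aco1 against Slc40a1 (-0.85 and -0.86). Fth1 had 0.84 with Tfr2, but 0.48 with slide means removed. The shRNA2 array of slide 1 was the lowest for Tfrc, Slc11a2 and Steap3 and the highest for Ireb2. By the dimmer Slc11a2 probe the lowest array was instead shRNA1 on slide 2 (-2.66, against -2.26 for shRNA2 on slide 1). Correlations with the dimmer probes were not computed.

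**Figure D4:**
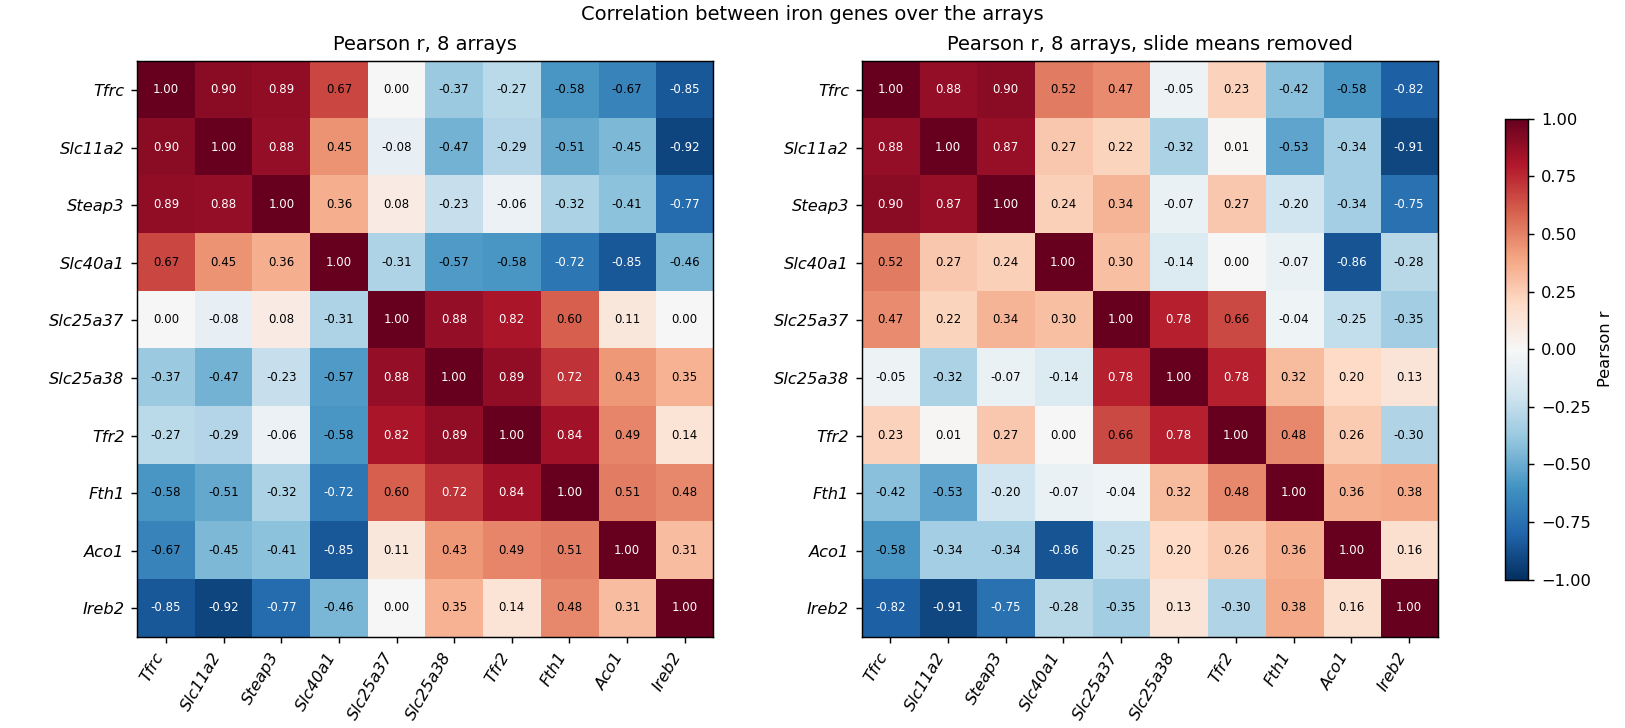
Pearson correlation between each pair of the 10 genes, each by its brightest probe, over the 8 arrays, as measured and with slide means removed. Tfrc, Slc11a2 and Steap3 form 1 block (0.88 to 0.90) and Slc25a37, Slc25a38 and Tfr2 another (0.82 to 0.89).

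Slide direction was shared by all 4 groups for 5 of the 10 genes: Tfr2, Slc25a37, Slc25a38 and Fth1 were lower on slide 2 and Slc40a1 was higher. The same was true of 65.9% of all genes. The median size of the slide difference was 0.70 over the 10 genes and 0.60 over all genes.

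The genes whose levels were most like each of the 10 over the 8 arrays were found among the other 19127. For Tfrc they were Chchd10 (Pearson r = 0.983) and H4c11 (0.981), and for Slc25a37 they were Clcn3 (0.992) and an unnamed transcript (0.988). For Slc25a38 they were Nxf3 (0.992) and Zup1 (0.991), and for Tfr2 Adck5 (0.993) and Pcnt (0.99). Slc40a1 was most like Pigl (0.983) and Pcgf5 (0.968), and Slc11a2 most like Tlcd4 and Srrt (0.981 each). Fth1 was most like Exoc7 (0.99) and an unnamed transcript (0.986), Steap3 like unnamed probes (0.984 and 0.976), Aco1 like Trim25 (0.978) and Cry2 (0.968), and Ireb2 like Tdpoz7 (0.975) and Sepx1 (0.944). Such likeness was common for some genes. There were 1555 genes with r above 0.9 for Tfr2, 1516 for Fth1, 1415 for Slc25a38 and 500 for Slc25a37. For Tfrc there were 214, for Steap3 143, for Slc40a1 121, for Aco1 99, for Slc11a2 81 and for Ireb2 10. Slc25a37, Slc25a38 and Tfr2 had 0.82 to 0.89 with each other, so many other genes were closer to each of them.

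Another 46 iron genes were listed by role, and 34 of them were tested. Among the 12 that were not well above background in any whole group were Hamp (hepcidin), Tmprss6, Bmp6 and Cp (ceruloplasmin), whose main sites are liver or other tissues. With DEX 23 of the 34 were lower and 11 higher, and the number lower was 22 to 25 under the 5 scalings. Their median was -0.29, against -0.08 over all genes. The arrays did not overlap for 8 of the 34, all lower, against 16.5% of all genes. With shRNA1 20 were higher and 14 lower, but 15 and 19 relative to the median of all genes, and 8 were higher without overlap (18% of all genes) and 1 lower (7.56%). With each array's median as the scale 12 were higher and 22 lower. With shRNA2 17 were higher and 17 lower, and 2 were higher without overlap (7.26% of all genes). Limma called 0 of the 34 in any of these comparisons, with or without the slide as a block. At an unadjusted p below 0.05 with the block it had 8 with DEX (9.55% of all genes), 9 with shRNA1 (17.8%) and 2 with shRNA2 (5.7%).

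Erfe (Fam132b in the array design), the hormone by which erythroid cells lower hepcidin, had the largest difference of the 44 tested iron genes. Its levels were -2.89 on both slides in control cells with DEX, against 0.56 and 0.14 without. The signal was 9.45-fold lower with DEX (-3.24, SE 0.42), and the second probe gave -2.87. Limma gave an adjusted p of 0.184, or 0.0596 with the slide as a block. With the block it passed under the normexp background correction (limma adjusted p = 0.00866) and without either shRNA2 array (0.0245 in both cases). The adjusted p lay between 0.0619 and 0.462 in the other settings tried, all chosen after seeing the data. With shRNA1 Erfe had -2.12 and -1.79, both above the control arrays with DEX (0.94), and with shRNA2 -3.32 and -2.31 (0.08).

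The next largest of the lower genes without overlap with DEX were Isca1, an iron-sulphur assembly factor (-0.95), and Slc46a1, a carrier of folate and haem (-0.80). Isca1 had 1.89 and 2.37 with DEX, against 3.07 and 3.09 without, and Slc46a1 had -0.39 and -0.48, against 0.54 and 0.17. With shRNA1 the largest of those higher without overlap, after Erfe, were Abcb10 (0.89), a mitochondrial transporter known to bind Slc25a37 in mouse cells, and Trf, transferrin itself (0.61). Abcb10 had 4.90 and 4.28 with shRNA1 and 3.53 and 3.09 with shRNA2, against 4.07 and 3.33 in control cells with DEX. It was higher with shRNA1 than with shRNA2 by 1.28 (1.37 and 1.19 on the slides), with limma adjusted p = 1, or 0.27 with the slide as a block.

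Hfe, which binds the transferrin receptor, was the 1 gene lower without overlap with shRNA1 (-1.15), and it was well above background on 1 of the 2 shRNA1 arrays. Its difference ran from -1.63 to 0.16 over the 5 scalings, so no direction can be given. It was also the 1 gene lower without overlap with shRNA1 than with shRNA2 (-2.02, between -2.30 and -0.42 over the scalings), while Abcb10, Erfe (0.86) and Isca1 (0.65) were the largest of 4 higher ones, against 12.3% of all genes. Trf and Slc46a1 (0.29) were the 2 genes higher without overlap with shRNA2. For Trf the difference of 1.28 was 2.51 on slide 1 and 0.04 on slide 2, where slide 1 is also the shRNA2 array with the highest neutrophil markers.

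**Figure D5:**
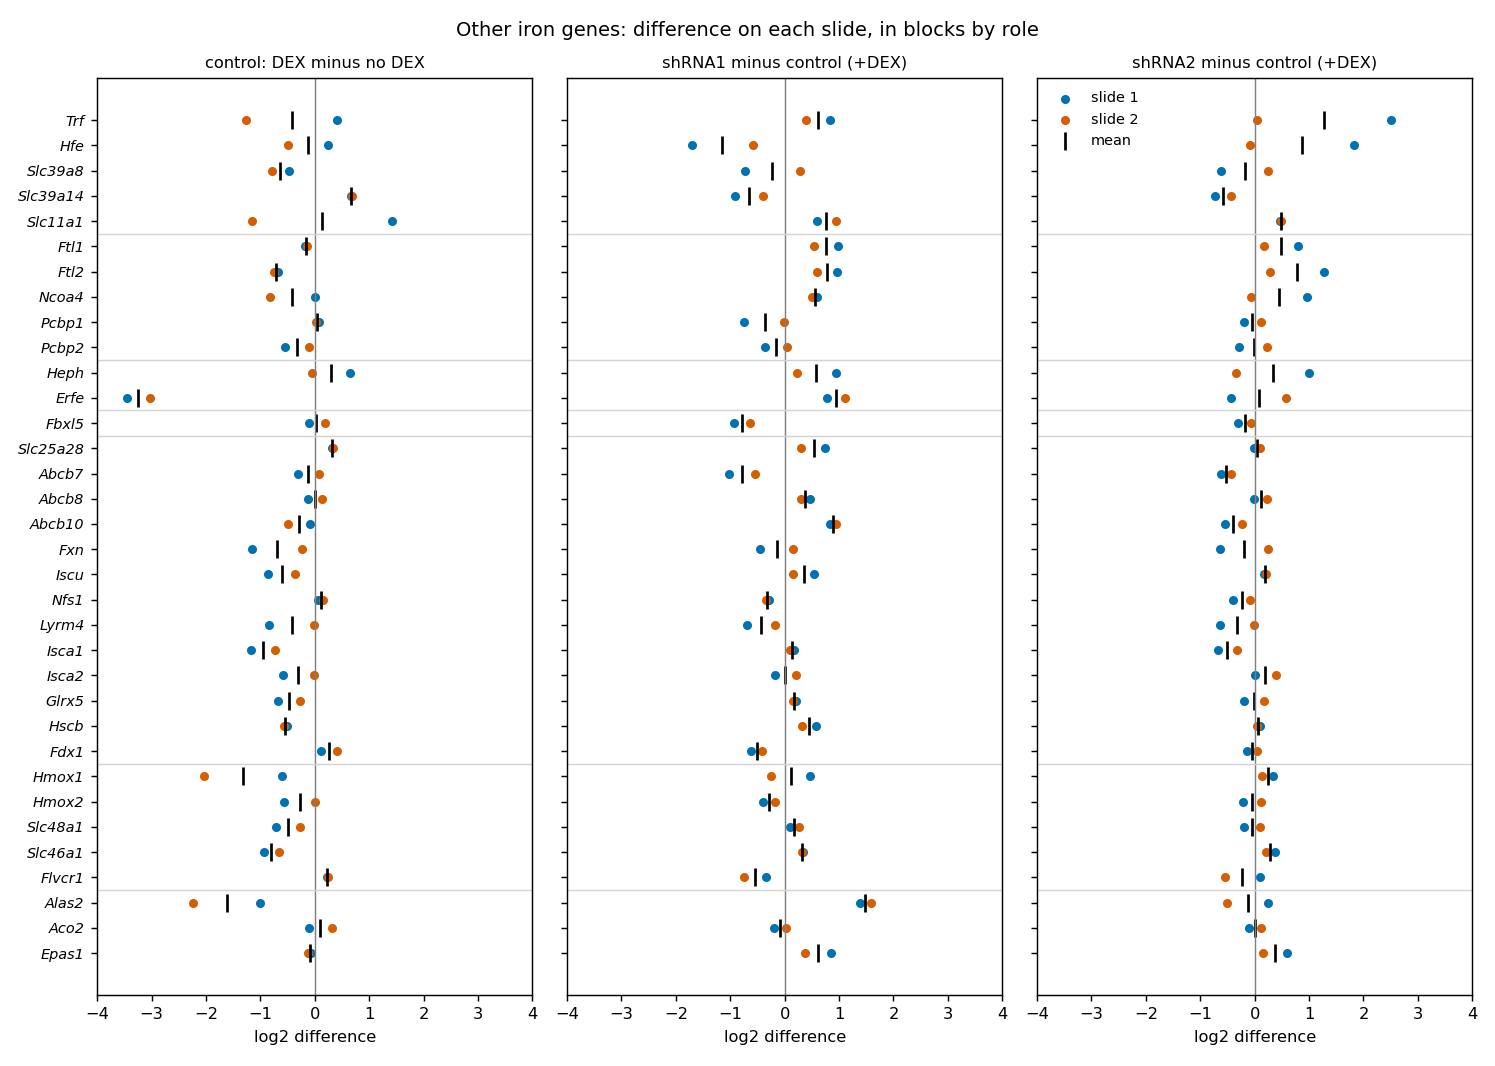
Log2 difference of 34 other iron genes on each slide (points) and on average (bars) in 3 comparisons, in blocks by role: transport, storage, export and systemic control, sensing, mitochondrial and iron-sulphur, haem handling, and other mRNAs with an iron-responsive element. Erfe stands lowest with DEX (-3.45 and -3.03), and Trf with shRNA2 differs between slides (2.51 and 0.04).

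The 250 bases before the start of the genes were searched in the promoter windows of RefSeq (build GRCm38.p6), of which 7 of the 10 genes had 14, with none for Slc25a37, Slc11a2 and Slc40a1. The glucocorticoid receptor half-site AGAACA, on either strand stood in 2 of the 14 windows, of Aco1, 194 bases before the start, and of Ireb2, 153 bases before. It stands in 16.1% of 32851 such windows. The full element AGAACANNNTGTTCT stood in 0 of the 14 windows and in 0.00913% of all. AGATAA, a site of the erythroid factor Gata1, on either strand, stood in 1 window, that of Steap3, and in 9.99% of all. The half-sites are shown with their surroundings, in capitals, and do not overlap another motif searched.
Aco1, chr4:40143059-40143088, plus strand: ccacgagtctctTGTTCTaggggtgggacg
Ireb2, chr9:54863590-54863619, plus strand: ctccagctctggAGAACAacagaggctgcg
A match is a match of letters, and binding was not measured in these data.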

How the data were processed

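RNA of 8 samples was measured on 1-colour arrays, 2 in each of 4 groups. Scans were read with version 10.1.1.1 of Agilent Feature Extraction, per the file headers, and the deposited processed signal of a spot is a linear intensity with spatial and multiplicative detrending and no further background correction. Limma too is named in the submitters' processing notes. A second deposited table holds log2 values, and how they were made is not given in the sources used here. Each column ranked its probes as the median signal of its own array did (Spearman correlation 1), column medians were 6.65 to 6.66, and genes were not centred. It served as an alternative.

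Of 44397 spots, 1377 controls were left out, as were spots marked as outliers, and 441 of 39429 probes lacked a usable spot. Spots of a probe were averaged, and no spot was saturated. The log2 intensity minus the array's 75th percentile was used. Names came by accession for 26581 probes and from the file for 12848. On each array 58.9% to 62.5% of probes were well above background. A probe was tested if this held for both arrays of any group, and a gene was its probe with the highest mean. The number of arrays limits the precision.

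All groups entered 1 fit (limma 3.58.1, lmFit and eBayes, R 4.3.3), at a Benjamini-Hochberg adjusted p below 0.05 over all genes tested. The labels' replicate number is the slide. Deviations of same-slide arrays from their group means correlated for all 6 pairs of groups (0.43 to 0.86). A slide effect alone can give this, so it does not show that the samples themselves were paired. The fit with the slide as a replicate block is given beside the first. Replicate arrays correlated at 0.934 to 0.980 over genes. The SD over genes of the difference between replicates was 0.72 in control cells without DEX and 0.85 with DEX. It was 1.20 with shRNA1 and 1.35 with shRNA2. The fit uses 1 spread per gene for all groups, so its SEs do not follow this. Scripts were tested on simulated data, with slide effects and spread modelled on these arrays and some genes changed with DEX. The fit without the block called 0% of changes of 1, 2 or 3 log2 units. With the block it called 1.49%, 46.3% and 72.7% of them, and 5 unchanged genes. A simulated gene had the same slide effect and spread in all groups, as the block assumes, so the shares in real arrays may differ. That a gene was not called is therefore no evidence that it was unchanged. Plots were drawn with matplotlib 3.10.9.

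Other iron genes are named by a rule: in each comparison the 3 largest differences in each direction without overlap between the arrays, and any past the threshold with the block, of which there was none. Alas2, Ftl1, Ftl2 and the untested genes are named outside it, chosen after their values were seen. The 10 genes and all lists were chosen with earlier results of these data known.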

Additional observations from a re-analysis of the deposited data

How the results depend on the processing

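Limma called 0 of the 10 genes in every comparison under every alternative, with or without the slide as a replicate block, and in each case with 1 array left out; combining the block with other alternatives was chosen after seeing the data, as were the settings for Erfe and the scalings for the order of the groups. The count over all genes moved only with the slide as a replicate block, to 44 for DEX and 1 for shRNA2, against 0. Of 280 values under other settings 258 kept their direction and 22 reversed, and of 320 with an array left out 286 kept it and 34 reversed; apart from the array scale below, the causes were not tested. Scaled to the array's median, the shRNA1 differences reversed to -0.21 (Tfrc), -0.33 (Steap3), -0.12 (Slc40a1), -0.20 (Fth1) and -0.36 (Aco1), the shRNA2 ones to -0.11 (Tfr2), -0.15 (Slc25a37), -0.16 (Slc25a38), -0.07 (Fth1) and -0.14 (Ireb2), and shRNA1 minus shRNA2 to -0.14 (Fth1); that scale shifts all genes of an array alike, and relative to the median of all genes 6 of the 10 were higher and 4 lower with either shRNA on both scales. With quantile normalization they were -0.10 (Fth1, shRNA1), -0.12 (Aco1, shRNA1), -0.02 (Ireb2, shRNA2) and -0.16 (Fth1, shRNA1 minus shRNA2), and in the authors' deposited log2 values -0.23, -0.09, -0.03 and -0.25. With normexp Fth1 gave -0.04 for shRNA1 minus shRNA2 and Ireb2 0.14 for shRNA1, and the mean of probes gave 0.03 for Slc11a2 with shRNA1. Leaving out 1 array, the DEX difference ran from -0.57 to 0.17 for Tfr2, -0.53 to 0.01 for Slc25a38 and -0.38 to 0.46 for Fth1. The shRNA1 difference ran from -0.18 to 0.56 for Tfrc, -0.12 to 0.26 for Steap3, -0.19 to 0.74 for Slc40a1, -0.19 to 0.58 for Fth1 and -0.66 to 0.72 for Aco1. The shRNA2 difference ran from -1.28 to 0.33 for Tfrc, -0.18 to 0.44 for Tfr2, -1.05 to 0.06 for Slc11a2, -0.75 to 0.94 for Slc25a37, -0.60 to 0.77 for Slc25a38, -0.21 to 0.57 for Fth1, -1.04 to 0.22 for Aco1 and -0.16 to 0.37 for Ireb2. That of shRNA1 minus shRNA2 ran from -0.13 to 1.47 for Tfrc, -0.27 to 0.83 for Slc11a2, -0.80 to 0.13 for Slc40a1, -0.33 to 0.36 for Fth1, -0.25 to 1.13 for Aco1 and -0.40 to 0.14 for Ireb2. Aco1 and Ireb2 were dim, and with 2 arrays a group the 95% interval without the block included 0 for the 10 genes in every comparison, except for Aco1 with DEX.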
